A study of Mus musculus with 6 samples.

Results

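The genes of programmed cell death described here are 42 mouse genes of the Bcl2 family, the caspases, the caspase inhibitors and the death receptor and necroptosis pathways. They were taken by name, and their probes were found through the RefSeq transcript of each probe on an Agilent mouse array, whatever the values were. Of the 42 genes, 40 had a matched probe, out of 20655 genes with a matched probe on the array, and 36 were bright enough to be tested, out of 14474 genes and unnamed targets tested. No probe was matched to Bcl2a1a or Bcl2a1b, and the probes of Bcl2l11, Bik, Hrk and Casp12 were too dim in both groups. By known role, 24 of the genes promote death (21 tested), 12 restrain it (10 tested), and 6 act either way or have an unsettled role (5 tested).

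The arrays were hybridised with RNA from spleens of male ICR mice, an outbred strain, 8 weeks old when bought, to ask how schisandrol A (SA), a lignan of Schisandra, acts in mice whose immune system was weakened. Mice of both groups were injected with cyclophosphamide, which alkylates DNA and is most toxic to cells that divide, over 5 days at 40 mg/kg. The MOD group (arrays 1, 2 and 3) received no SA and, by the design text, was given water by mouth during the weeks of SA dosing. The SA-H group (arrays 4, 5 and 6) received SA at 1000 mg/kg per day by the labels, which place its samples at day 28 and those of the MOD group at day 5, so that, if the labels are right, treatment and day cannot be told apart. The paper states a dose and a length of dosing for its SA-H group that differ from these labels. Which of them holds for the arrays could not be worked out. Mice without cyclophosphamide were not analysed here. Nothing in the labels says that arrays of 1 group stem from separate mice, and p-values then measure only a spread between samples that may be technical.

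Apoptosis runs along a mitochondrial route, in which Bax and Bak1 open the outer membrane unless survival proteins such as Bcl2 hold them back, and a death receptor route, in which Fas and Fadd activate caspase-8. BH3-only proteins tip the balance at the mitochondrion, and cytochrome c then assembles with Apaf1 to activate caspase-9, while IAP proteins block caspases and Diablo removes that block. Lymphocytes of the spleen are among the cells most dependent on this balance, and necroptosis, run by Ripk1, Ripk3 and Mlkl, is an alternative death that needs no caspase.

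Levels are given on the log2 scale relative to each array's 75th percentile, so that a level of 0 equals that percentile, and a change is the SA-H mean minus the MOD mean. A gene was tested if the scanner software called its probe well above background on each of the 3 arrays of MOD or of SA-H. The scanner signal at the 75th percentile was 599 to 840 in the MOD group and 220 (array 4), 868 (array 5) and 433 (array 6) on the SA-H arrays, and 43.1% to 73.9% of 43020 spots were well above background. Array 4 stood apart from the others with the lowest signal. Arrays MOD 1, MOD 3 and SA-H 6 were scanned on one day, MOD 2 and SA-H 4 on another, and SA-H 5 on a day of its own. Markers of B cells (11 of 12 listed genes) and T cells (13 of 14) were bright enough to be tested, as in spleen, while 7 of 10 liver markers, albumin among them, and 7 of 8 pancreas markers were not. Of the 3 liver markers tested, 1 was higher and 1 lower in SA-H at an unadjusted p under 0.05. Their summed linear level, relative to the 75th percentile, was 7.98 to 9.04 on the MOD arrays and 7.38 to 9.61 on the SA-H arrays. The remaining pancreas marker, Ins2, was higher in SA-H by 2.59, with a linear level of 0.238 to 0.931 on the MOD arrays and of 1.44 to 6.45 on the SA-H arrays, and array 4 was the highest. Between the groups, 11 of 18 mitosis genes and 5 of 6 tested fat cell markers were lower in SA-H at an unadjusted p under 0.05, beside 12.5% of all tested genes. Their median changes were -0.99 and -2.42, and the median change of 20 ribosomal protein genes was 0.47. The summed linear level of the fat cell markers, relative to the 75th percentile, ran from 9.45 to 13.8 on the MOD arrays and from 5.02 to 5.97 on the SA-H arrays. The part of these other differences in the results below was not tested.

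In the SA-H group, the initiator caspase Casp2, the caspase inhibitor Xiap, its antagonist Diablo and the survival gene Bcl2l1 were lower than in the MOD group, and the Bcl2 relative Bcl2l14 was higher, each at an unadjusted p under 0.05 in limma. None of the 36 tested genes passed an adjusted p of 0.05, and neither did any other gene (0% of 14474 in limma, whose smallest adjusted p was 0.0712). Over all tested genes, 3377 had an unadjusted p under 0.05, and a plain analysis of variance gave 2828 at that threshold and 0 after adjustment. Of the death genes, 1 of 36 was higher at an unadjusted p under 0.05, beside 10.8% of all tested genes, and 4 of 36 were lower, beside 12.5%. The count of lower genes was thus close to the share over the whole array, and the count of higher genes was below it. With a fold of at least 2 as well, Bcl2l14 was the gene that was higher (7.74% of all tested genes) and Casp2 the gene that was lower (5.03%). In the value table deposited by the authors, whose columns did not all follow the arrays of the same label, Bcl2l1 was the only one of the 5 genes that kept the call (-1.08 ± 0.21), and the changes were -0.43 for Casp2, -0.17 for Xiap, -0.09 for Diablo and 0.66 for Bcl2l14. Fewer cells of a type and less RNA per cell cannot be told apart in RNA from whole spleen.

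Casp2, activated on a platform that answers DNA damage and extra centrosomes, had levels of 2.86, 2.77 and 3.33 on MOD arrays 1, 2 and 3 and of 1.59, 1.68 and 2.19 on SA-H arrays 4, 5 and 6. Every SA-H array lay below every MOD array. The change was -1.17 ± 0.28 (SE, n = 3 and 3), a 2.25-fold lower level, with a limma adjusted p = 0.094. On the scan days shared by both groups it was -0.90 and -1.19. The median of the mitosis genes was lower on the SA-H arrays as well. Relative to each gene's mean, it was 0.39 to 0.55 on the MOD arrays and -0.18, -0.62 and -0.37 on SA-H arrays 4, 5 and 6. Among the SA-H arrays, array 4 was the lowest for Casp2 and the highest for the mitosis genes. The part of the mitosis genes in the value of Casp2 was not tested.

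Xiap, which binds and blocks caspases directly, had levels of 2.26, 2.17 and 2.49 on the MOD arrays and of 1.00, 1.39 and 1.72 on the SA-H arrays. The groups did not overlap, and array 4 was the lowest. The change was -0.94 ± 0.27, a 1.92-fold lower level (limma adjusted p = 0.12), and -0.66 and -1.17 within the scan days. Diablo, the mitochondrial protein that frees caspases from Xiap, had levels of 1.42, 1.36 and 1.22 on the MOD arrays and of 0.29, 0.83 and 0.82 on the SA-H arrays. Again no SA-H array reached the MOD range, and array 4 was the lowest. Its change was -0.69 ± 0.25, a 1.61-fold lower level (limma adjusted p = 0.17). Leaving out MOD array 1 or 2 ended this call.

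Bcl2l1 encodes Bcl-xL, which keeps the pore formers in check and on which maturing red cells depend. Its brightest probe read 5.42, 5.19 and 5.35 in the MOD group and 4.94, 4.23 and 4.63 on the SA-H arrays, without overlap and with array 5 the lowest. The change was -0.72 ± 0.26, a 1.65-fold lower level (limma adjusted p = 0.17), and -0.76 and -0.25 within the scan days. The call was lost without MOD array 1, 2 or 3 and without SA-H array 5 or 6, and with the day of scanning as a block (a change of -0.54). A second, dimmer probe of the gene read -2.97, -1.27 and -3.22 in the MOD group and 0.57, -0.97 and -2.16 in the SA-H group, and was not well above background on MOD arrays 1 and 3. Its value was 1.63 ± 0.77 (limma adjusted p = 0.24 over all probes). This probe was kept through the SA-H arrays alone, so no direction is read from it. Of 12 erythroid markers, 4 were lower in SA-H at an unadjusted p under 0.05, beside 12.5% of all tested genes. Changes below 0 were found in 11 of the 12, beside 7570 of all 14474 tested genes. The erythroid median relative to each gene's mean was 0.44, 0.28 and 0.09 in the MOD group and 0.31, -0.69 and -0.30 on the SA-H arrays. Arrays 5 and 6 were the lowest, as for Bcl2l1. Array 4 lay within the MOD range, whereas for Bcl2l1 it lay below every MOD array. The summed linear level of these markers, all 12 of them well above background on every array of at least 1 group, ran from 343 to 431 in MOD and from 242 to 499 in SA-H. Their part in the value of Bcl2l1 was not tested.

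Bcl2l14, or Bcl-G, is a Bcl2 relative whose part in death is unsettled. Its levels were -0.12, -0.45 and 1.07 in the MOD group and 3.90, 1.17 and 3.24 on the SA-H arrays. Arrays 4 and 6 were well above all others, whereas SA-H array 5 lay next to MOD array 3. The change was 2.61 ± 0.73, a 6.09-fold higher level (limma adjusted p = 0.11), and 2.77 and 4.35 within the scan days. With a block for the day of scanning, which drops array 5 from the comparison since it was scanned alone, the change of Bcl2l14 was 3.44 ± 0.49 and passed the adjusted threshold (limma adjusted p = 0.018). In that fit, 1075 of 14474 genes passed the adjusted threshold. At an unadjusted p under 0.05, 2523 genes were higher and 1915 lower. Birc6 (0.81), Bax (0.73), Ripk3 (0.64) and Bcl2l13 (1.21) were then among the higher and Apaf1 (-0.67) and Casp9 (-1.12) among the lower genes, and none of these 6 passed an adjusted p of 0.05. A second probe of Bcl2l14, well above background on every array, read -2.58, -2.94 and -1.94 in the MOD group and -2.01, -2.43 and -2.08 on the SA-H arrays, with overlapping groups. Its change was 0.31 ± 0.32 (limma adjusted p = 0.56 over all probes).

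**Figure D1:**
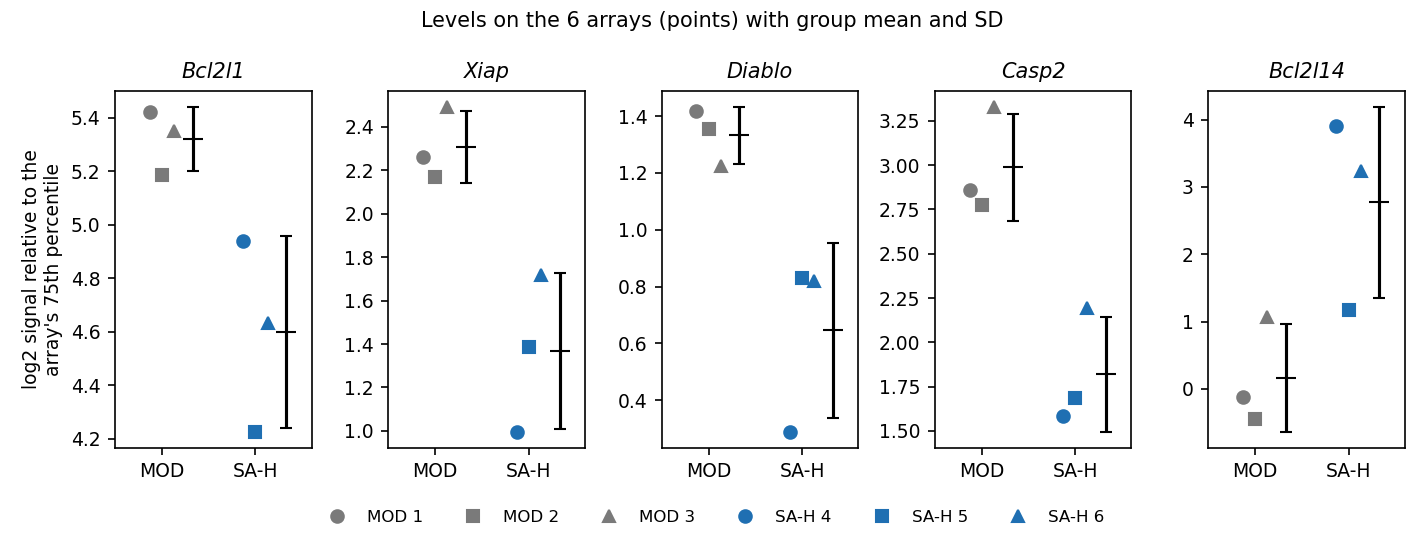
Log2 level relative to each array's 75th percentile (y axes differ between panels) of the 5 genes with an unadjusted limma p under 0.05. Points are arrays, with the group mean and SD (n = 3) beside them in black. In each gene the groups do not overlap, and SA-H array 5 of Bcl2l14 (1.17) lies just above MOD array 3 (1.07).

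The start regions of these genes are shown because their probes carried the differences above. The sequences are those of RefSeq on GRCm38.p6, the 250 bases before an annotated start, read along the gene: chr6:42264735-42264984 (+ strand) for Casp2, chr2:152830718-152830967 (- strand) for Bcl2l1, chr5:123524165-123524414 (- strand) for Diablo, chrX:42068148-42068397 (+ strand) for Xiap and chr6:134414178-134414427 (+ strand) for Bcl2l14. Where RefSeq gave several starts, the one with the most CpG sites is printed, except for Bcl2l1, where it is the one that holds an E2F motif. Capitals mark matches, on either strand, to the GC box with the letters GGGCGG. They also mark the CCAAT box, with the letters of its name, and the TATA box, searched as TATAAA. Last, they mark an E2F motif, searched as TTTGGCGC, TTTCCCGC or TTTCGCGC. A match on the opposite strand appears as its reverse complement, and in Casp2 the E2F match overlaps a GC box.
Casp2: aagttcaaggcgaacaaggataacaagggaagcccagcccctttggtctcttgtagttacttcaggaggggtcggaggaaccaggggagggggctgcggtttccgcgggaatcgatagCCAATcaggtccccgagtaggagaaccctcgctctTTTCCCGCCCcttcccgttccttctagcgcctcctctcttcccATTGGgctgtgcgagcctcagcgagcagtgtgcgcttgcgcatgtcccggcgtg
Bcl2l1: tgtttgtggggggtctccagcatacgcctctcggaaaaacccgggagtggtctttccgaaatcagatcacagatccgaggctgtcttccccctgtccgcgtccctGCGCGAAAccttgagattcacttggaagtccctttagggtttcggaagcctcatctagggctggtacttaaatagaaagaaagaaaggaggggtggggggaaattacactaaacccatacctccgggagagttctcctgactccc
Diablo: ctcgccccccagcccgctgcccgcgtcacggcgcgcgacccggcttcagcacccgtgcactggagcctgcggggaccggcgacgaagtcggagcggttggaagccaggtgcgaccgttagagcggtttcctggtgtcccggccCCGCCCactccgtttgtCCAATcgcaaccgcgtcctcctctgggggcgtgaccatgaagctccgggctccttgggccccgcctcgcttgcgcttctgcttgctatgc
Xiap: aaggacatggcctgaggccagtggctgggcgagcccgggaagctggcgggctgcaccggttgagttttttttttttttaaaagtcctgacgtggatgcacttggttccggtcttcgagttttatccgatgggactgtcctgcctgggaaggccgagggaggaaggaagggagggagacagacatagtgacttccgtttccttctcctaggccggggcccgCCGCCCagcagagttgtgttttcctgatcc
Bcl2l14: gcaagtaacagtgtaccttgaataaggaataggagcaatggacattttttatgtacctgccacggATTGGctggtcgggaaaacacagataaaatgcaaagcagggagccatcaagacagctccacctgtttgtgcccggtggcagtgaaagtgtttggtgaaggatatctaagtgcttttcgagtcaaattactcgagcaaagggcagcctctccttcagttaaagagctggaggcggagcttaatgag
Of the 36 tested genes, 34 had a start region that could be shown or searched, with 47 regions in all. A GC box was found in 26 of the 47 (55.3%), beside 32.7% of all 32851 RefSeq start regions of this length. The E2F motif was found in 3 (6.38%), those of Bcl2l1, Casp2 and Fadd, beside 1.53% of all. A CCAAT box was found in 10 (21.3%, beside 33.9%) and a TATA box in 3 (6.38%, beside 12.4%). The 47 regions stem from genes bright enough to be tested, some with several starts, whereas the 32851 are of all genes, expressed or not. The shares are thus not a comparison of like with like, and no excess is read from them. These matches are a description of letters. The array did not measure binding.

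Among the survival proteins of the Bcl2 group, 5 were tested, and Bcl2l1 was the only one with an unadjusted p under 0.05. Bcl2, the founding member that keeps lymphocytes alive, had levels of -1.18, -0.87 and -0.03 on the MOD arrays and of -0.95, -0.60 and -0.61 on the SA-H arrays. The SA-H arrays lay inside the MOD range, and the change was -0.03 ± 0.34 with a 95% interval from -0.82 to 0.77. Mcl1, a short-lived survival protein, had levels of 4.85, 4.57 and 5.02 in MOD and of 4.29, 4.57 and 4.89 in SA-H. The groups overlapped, with a change of -0.23 ± 0.26 (95% interval from -0.84 to 0.39). A second probe of Mcl1 gave -0.76 ± 0.28 (limma adjusted p = 0.18 over all probes). Bcl2l2, or Bcl-w, gave -0.17 ± 0.31 on its brighter probe and 1.23 ± 0.50 on the other (limma adjusted p = 0.20 over all probes), which was not well above background on MOD array 3. Bcl2a1d, of the A1 survival proteins induced by inflammation, lay above every MOD array on every SA-H array with a change of 0.33 ± 0.24 (limma adjusted p = 0.42). Its copies Bcl2a1a and Bcl2a1b are nearly identical to it and had no probe of their own, so its value may hold their RNA.

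Of the IAP proteins, Xiap was lower as described, and the others had an unadjusted limma p of 0.05 or above in the main setting. In some alternatives, with and without a block, Birc6 had an unadjusted p under 0.05, as did Birc2 with median scaling. Birc2, which modifies the receptor-bound kinase Ripk1 with ubiquitin, gave -0.70 ± 0.41 (limma adjusted p = 0.32), with SA-H array 4 at 0.14 and the other arrays between 1.37 and 2.03. Birc3, its close relative, had levels of -0.95, -1.34 and -0.48 on the MOD arrays and of -2.82, -0.84 and -0.64 on the SA-H arrays. Array 4, where its probe was not well above background, stood far below the rest, which overlapped, and the change was -0.51 ± 0.59. Birc6, a very large IAP that also targets Diablo, had levels of 0.17, 1.18 and 0.20 in MOD and of 2.07, 1.37 and 0.94 in SA-H. The groups overlapped, since MOD array 2 lay above SA-H array 6, and the change was 0.95 ± 0.40 (limma adjusted p = 0.22). Cflar, the caspase-8 decoy, had levels of -1.05, -1.24 and -0.83 in MOD and of -1.54, -0.67 and -0.38 in SA-H, which overlapped. Its change was 0.18 ± 0.34, and a second probe gave -0.83 ± 0.32 (limma adjusted p = 0.18 over all probes) and was not well above background on array 4.

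None of the 3 pore formers had an unadjusted limma p under 0.05 in the main setting, and their changes had both signs. Bax and Bak1 did so in some alternatives, among them quantile normalization and another background correction (normexp), which use no block. Bax had levels of 1.04, 1.99 and 1.65 on the MOD arrays and of 2.65, 2.12 and 2.13 on the SA-H arrays. Each SA-H array lay above each MOD array, and the change was 0.74 ± 0.32 (limma adjusted p = 0.22). Bak1, its partner in opening the mitochondrial membrane, had levels of 2.96, 2.67 and 3.10 in MOD and of 2.43, 2.01 and 2.54 in SA-H. Here each SA-H array lay below each MOD array, with a change of -0.58 ± 0.26 (limma adjusted p = 0.23). Bok, a pore former that acts without Bax and Bak1, gave 0.42 ± 0.35. The difference between the changes of Bax and Bak1 was not tested.

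Of the 8 BH3-only genes, 5 were tested and none had an unadjusted p under 0.05. Bbc3 (Puma) and Pmaip1 (Noxa), both induced by p53, gave 0.35 ± 0.29 and 0.49 ± 0.30. Bid, which links death receptors to the mitochondrion, gave -0.48 ± 0.27, Bmf, which is held at the cytoskeleton, -0.56 ± 0.39, and Bad, switched off by survival kinases, -0.23 ± 0.26. Bcl2l11 (Bim), needed for the deletion of lymphocytes, was read at -3.84, -4.01 and -3.44 on the MOD arrays and at -4.22, -4.31 and -3.44 on the SA-H arrays. Its probe was well above background on MOD arrays 2 and 3 and SA-H array 5, so no change is given. Bik and Hrk, the remaining BH3-only genes, were well above background on 0 of 6 arrays.

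Downstream of the mitochondrion, Apaf1, the scaffold on which caspase-9 is activated, had levels of 0.30, 0.14 and 0.60 on the MOD arrays and of -0.84, -0.03 and -0.00 on the SA-H arrays. The groups did not overlap, array 4 was the lowest, and the change was -0.63 ± 0.31 (limma adjusted p = 0.26). Cycs, the gene of cytochrome c, gave -0.12 ± 0.40 on its brightest probe, where array 4 was the highest of the 6 arrays and array 5 the lowest. Another probe of Cycs gave -0.71 ± 0.26 (limma adjusted p = 0.18 over all probes), with array 4 the lowest.

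The changes of all 4 apoptotic caspases were below 0, with a median of -0.72, but Casp2 alone had an unadjusted p under 0.05. Casp9, the initiator at the apoptosome, had levels of 1.79, 1.93 and 1.89 on the MOD arrays and of -0.40, 1.71 and 1.62 on the SA-H arrays. Array 4 stood far below the other arrays, which lay close together, and the change was -0.89 ± 0.55 (limma adjusted p = 0.35). Casp8, the initiator at death receptors, had levels of 0.86, 0.57 and 0.92 in MOD and of -0.37, 1.10 and 1.29 in SA-H. SA-H array 4 was the lowest and SA-H arrays 5 and 6 the highest, with a change of -0.11 ± 0.45 (95% interval from -1.17 to 0.95). Casp6, an executioner caspase, gave -0.55 ± 0.38, with array 4 at 0.13 and the other arrays between 1.22 and 1.64. Without array 4, the median change of the 4 caspases was -0.18. Of 12 markers of macrophages and monocytes, 10 were tested (Cd68 and Siglec1 were not), and their median change was -0.55. At an unadjusted p under 0.05, 1 was higher, beside 10.8% of all tested genes, and 1 lower, beside 12.5%. Array 4 was the lowest for 8 of the 10, whose median relative to each gene's mean was 0.41, 0.19 and 0.22 in the MOD group and -0.92, 0.04 and 0.16 in the SA-H group. Their summed linear level ran from 83.2 to 99.6 in MOD and from 68.9 to 103 in SA-H, and their part in the caspase values was not tested. Casp1, which matures inflammatory cytokines, and Casp4, which answers bacterial lipopolysaccharide inside cells, gave -0.38 ± 0.34 and -0.35 ± 0.45, with overlapping groups. A second probe of Casp4 gave 0.13 ± 0.35. Casp12, whose role is unsettled, was well above background on MOD array 2 and SA-H array 5 alone and was not tested.

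**Figure D2:**
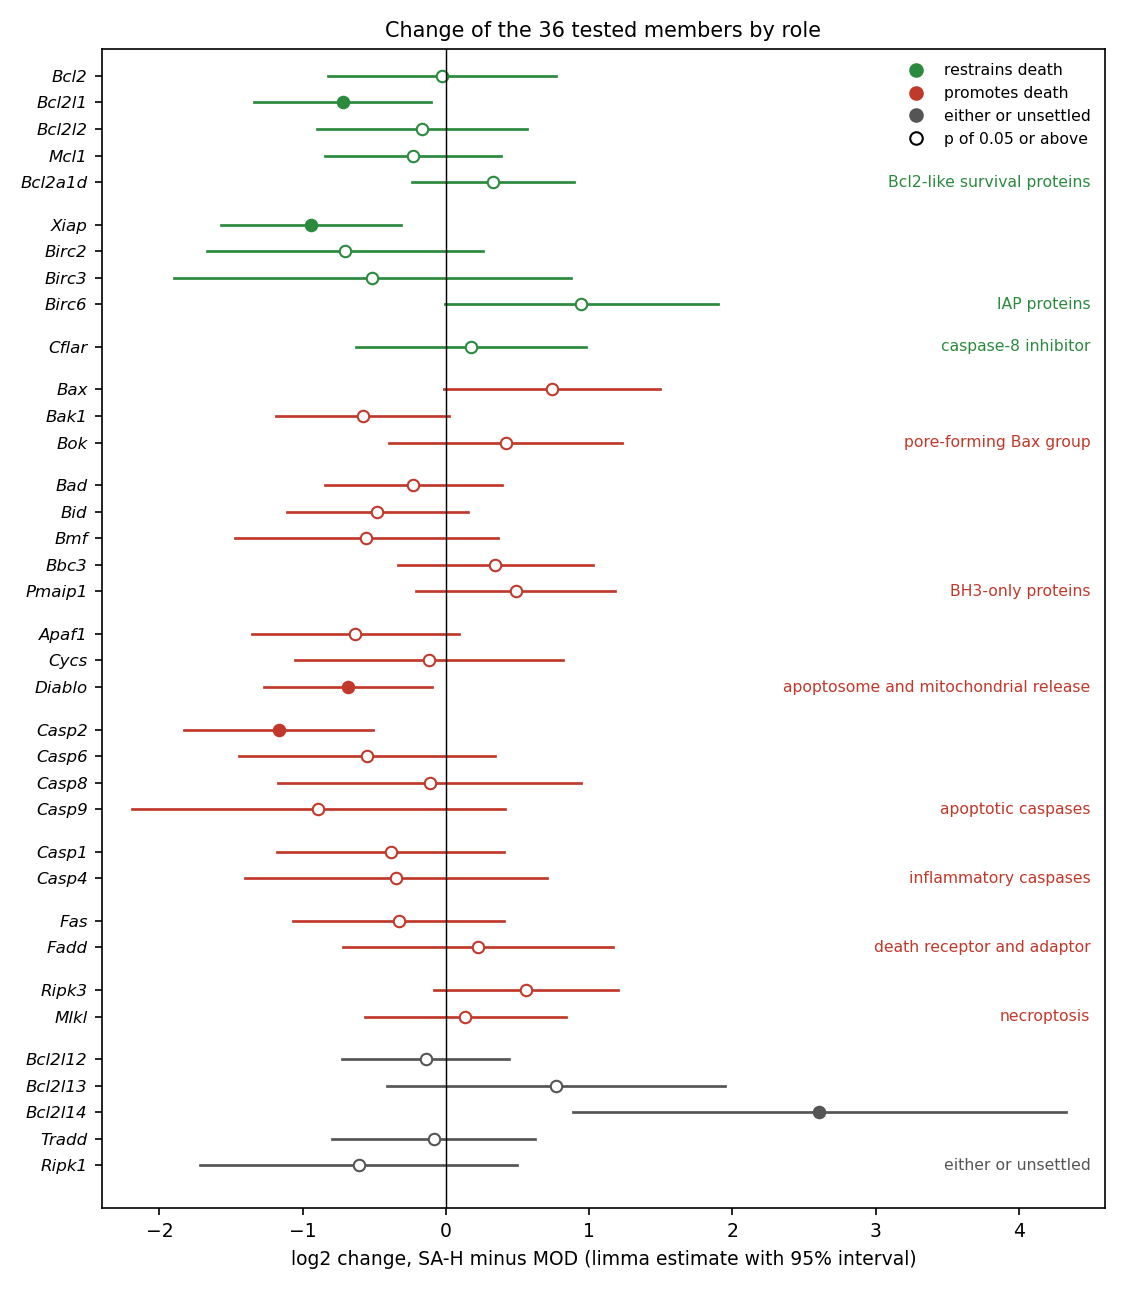
Change of the 36 tested genes by role, as the SA-H minus MOD difference on the log2 scale with its 95% interval from limma (x axis), with filled points at an unadjusted p under 0.05. Casp2 (-1.17), Xiap (-0.94), Bcl2l1 (-0.72) and Diablo (-0.69) lie below 0 and Bcl2l14 (2.61) above it, and the intervals of the other 31 genes include 0.

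At the death receptors, Fas had levels of 1.27, 0.94 and 1.68 on the MOD arrays and of 0.55, 0.99 and 1.35 on the SA-H arrays. The groups overlapped, and the change was -0.33 ± 0.31. Its adaptor Fadd gave 0.22 ± 0.40 and Tradd, the adaptor of the TNF receptor, -0.09 ± 0.30. Ripk1, the kinase that can signal survival or death, had levels of -0.10, -0.29 and -0.01 in MOD and of -1.86, -0.27 and -0.10 in SA-H. Array 4 stood far below the other arrays, which overlapped, and the change was -0.61 ± 0.47. Ripk3, which starts necroptosis, had levels of 0.26, -0.40 and 0.29 in MOD and of 0.45, 0.61 and 0.77 in SA-H. All SA-H arrays lay above the MOD arrays, with a change of 0.56 ± 0.27 (limma adjusted p = 0.26). Mlkl, the protein that ruptures the membrane in necroptosis, had levels of -2.84, -2.62 and -3.45 in MOD and of -2.59, -2.81 and -3.11 in SA-H. The groups overlapped, its probe was well above background on 1 of 3 SA-H arrays, and the change was 0.13 ± 0.30. Of the members of unsettled role, Bcl2l13, a mitochondrial receptor for mitophagy, gave 0.77 ± 0.50, with array 4 at 2.52 and the other arrays between 0.38 and 1.33. Bcl2l12, a Bcl2 relative linked to p53 signaling, gave -0.14 ± 0.25.

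Taken by role, 14 of 21 death-promoting genes had changes below 0, with a median of -0.33, and so did 7 of 10 death-restraining genes, with a median of -0.20. Over all tested genes, 7570 of 14474 had changes below 0, and the median was -0.04. The median of the promoting genes, each relative to its own mean, was 0.14, -0.03 and 0.31 in the MOD group and -0.58, -0.15 and 0.12 on the SA-H arrays. That of the restraining genes was 0.14, -0.01 and 0.32 in the MOD group and -0.50, 0.05 and 0.09 on the SA-H arrays. In both lists array 4 was the lowest and array 6 lay within the MOD range, as did array 5 for the restraining genes. Without array 4, the median change was -0.15 for the promoting genes and 0.09 for the restraining genes, which turned the direction of the second list. Within the scan days, it was -0.17 and -0.24 for the promoting and -0.02 and -0.29 for the restraining genes.

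Array 4 was the lowest of the 6 arrays for 19 of 36 death genes, beside 29.7% of all tested genes, and the highest for 11 of 36, beside 35.2%. It lay more than 1 below every other array for 5 genes (Birc2, Birc3, Casp6, Casp9 and Ripk1) and more than 1 above every other array for Bcl2l13. Every SA-H array lay below every MOD array for 7 of 36 genes (Bcl2l1, Xiap, Bak1, Apaf1, Diablo, Casp2 and Casp9), beside 20.7% of all tested genes, and above for 4 (Bcl2a1d, Bax, Ripk3 and Bcl2l14), beside 11.9%. Both shares were close to those over the array. The 5 genes with an unadjusted p under 0.05 kept this call when array 4 was left out. The ribosomal protein genes were highest on array 4, with a median relative to each gene's mean of 0.68.

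**Figure D3:**
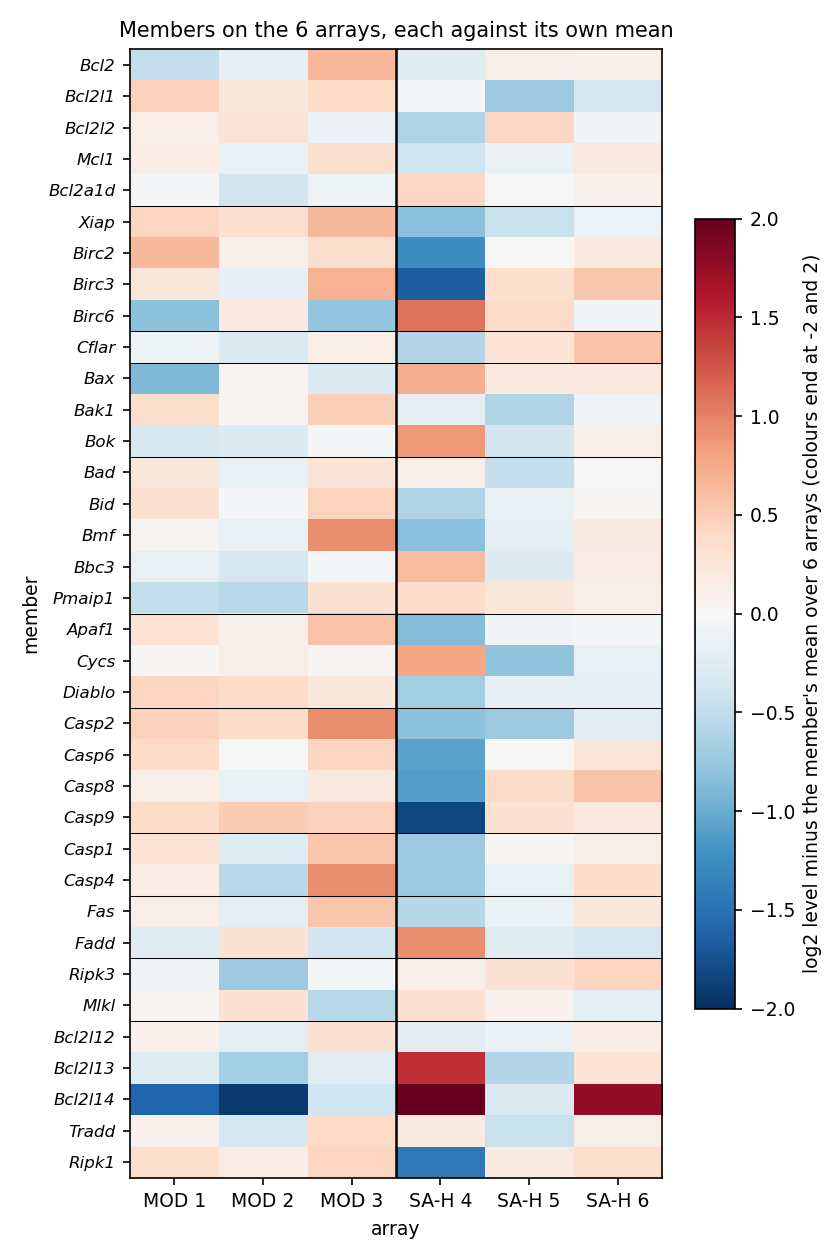
Levels of the 36 tested genes on the 6 arrays, as the log2 level minus the mean of the gene over the 6 arrays (colours end at -2 and 2), with lines between roles and a thick line between the MOD and SA-H arrays. SA-H array 4 holds the lowest value in 19 genes and the highest in 11.

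The probes of a gene did not always give the same change. In 5 genes another probe bright enough to be kept had the opposite sign (Bcl2l1, Bcl2l2, Cflar and Casp4) or differed by more than 1 (Bcl2l2, Bcl2l1, Cflar and Bcl2l14). Mcl1 and Cycs are added because their second probe passed an unadjusted p of 0.05 where the first did not, and they were chosen after their values were seen. The second probes of Bcl2l1 and Bcl2l2 were kept through the SA-H arrays alone and that of Cflar through the MOD arrays alone, so no direction is read from these 3. The probes may lie on different transcripts or ends of a transcript, which was not tested.

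**Figure D4:**
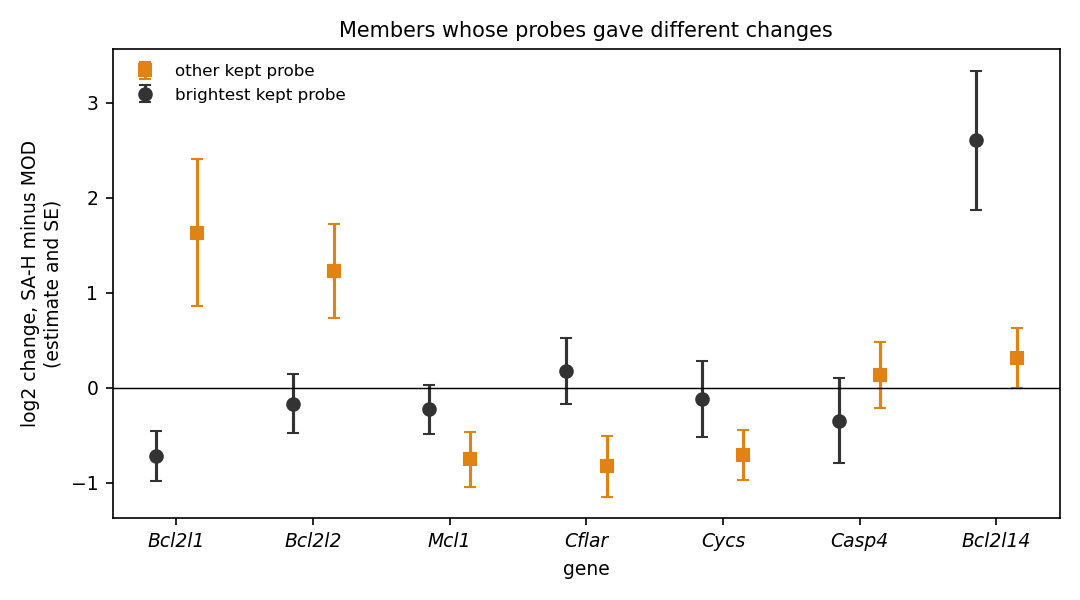
Change from SA-H minus MOD on the log2 scale (y axis, estimate and SE) of the brightest kept probe (circles) and of another kept probe (squares) in 7 genes. The probes of Bcl2l1 (-0.72 and 1.63) and Bcl2l2 (-0.17 and 1.23) lie on opposite sides of 0, and those of Bcl2l14 (2.61 and 0.31) differ in size. Squares of Bcl2l1 and Bcl2l2 come from probes kept through the SA-H group alone.

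Around these genes, 64 further genes of the pathway were listed from textbook roles, of which 51 were tested. At an unadjusted p under 0.05, 7 of 51 were higher in SA-H, beside 10.8% of all tested genes, and 6 of 51 were lower, beside 12.5%, both close to the share over the array. The median change was -0.13. Of the mitochondrial and Bcl2-binding genes, 2 of 19 tested were higher and 5 were lower, beside the same shares. Of these 5, Moap1 and Bag4 were kept through the MOD arrays alone, as was Naip1 among the 6 of 51. A gene kept in this way is more readily read as lower in SA-H. With the filter on all 6 arrays, 7 of 46 further genes were higher and 3 lower, beside 1262 and 1512 of 12152 tested genes. Bnip3, a Bcl2-binding mitophagy receptor induced by low oxygen, was read at 2.29, 3.33 and 2.17 on the MOD arrays and at 4.84, 5.04 and 3.49 on the SA-H arrays, a change of 1.86 ± 0.50 (limma adjusted p = 0.11). Its relative Bnip3l, which clears mitochondria from maturing red cells, was read at 5.78, 5.87 and 5.67 and at 4.66, 4.66 and 5.06, a change of -0.98 ± 0.23 (limma adjusted p = 0.093). The groups did not overlap in either gene on these probes. A dimmer probe of Bnip3, kept through the MOD arrays alone, gave -0.24 ± 0.26 (limma adjusted p = 0.59 over all probes), and in the authors' table the change of Bnip3 was 0.42. The other 3 kept probes of Bnip3l gave changes from -0.86 to -0.18. Of the others, the co-chaperone Bag3 changed by 1.33 ± 0.28, Bnip1 by -1.02 ± 0.28 and the channel Vdac1 by -0.62 ± 0.23. Moap1, which activates Bax, changed by -1.49 ± 0.56, with array 4 at -4.11 and its probe well above background on 2 of 3 SA-H arrays. Without array 4 its change was -0.81, and with another background correction (normexp) it was -0.58.

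Il1b, the cytokine released in pyroptosis, was read at 0.96, 1.15 and 1.00 on the MOD arrays and at 2.13, 2.52 and 2.23 on the SA-H arrays. Its groups did not overlap, and the change of 1.26 ± 0.23 had the smallest p of the 51 genes (limma adjusted p = 0.079), while its protease Casp1, given above, had overlapping groups. Naip5, a sensor of bacterial flagellin that activates caspase-1, changed by 1.25 ± 0.26, and Naip1, of the same family of near-identical copies, by -0.78 ± 0.21. Their probes may share RNA of other copies, and that of Naip1 was well above background on 1 of 3 SA-H arrays. With normexp the change of Naip1 was -0.26, without a call. Rnf31, part of the ubiquitin ligase that restrains death at the TNF receptor, changed by 0.64 ± 0.23. In the authors' table the changes were 0.38 for Il1b, 0.04 for Naip5, -1.01 for Naip1 and 0.67 for Rnf31. With median scaling, Il1b (0.94), Naip5 (0.93) and Rnf31 (0.31) lost the call, and Naip1 (-1.10) kept it.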

How the data were processed

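RNA from 6 mouse spleen samples (3 MOD, 3 SA-H) was hybridised to 1-colour Agilent mouse arrays. The deposited intensity values came from Agilent Feature Extraction 11.0.1.1, per the file headers and the submitters' processing notes, after background subtraction and without scaling across arrays. A value table on a log2 scale was also deposited. How the authors made it is not given in the sources used here, and log2 is the scale its range fits (each column has a median of 5.35). For the comparison, log2 of the processed intensity minus that of the 75th percentile of each array over non-control spots was used. Outlier spots were left out (172 to 634 per array), spots of a probe were averaged, and probes with no usable spot on an array were dropped. Probes were named through RefSeq accessions (27228 of 39429, 69.1%), and a gene was read from its brightest probe among those well above background on all 3 arrays of MOD or of SA-H.

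SA-H was set against MOD with limma 3.58.1 under R 4.3.3 (lmFit, eBayes, Benjamini-Hochberg adjustment over all 14474 genes and targets). The number of arrays limits the precision. The method was tested on simulated data. Values on every array are given for tested members with an unadjusted p under 0.05, for members well above background throughout exactly 1 group, and for 15 genes fixed by name. Those of Birc6 are given as well, though none of these rules covers it. The further pathway genes named are the 10 with the smallest p. Other kept probes are given where they differed in sign or by more than 1. The members and lists were chosen with earlier results of these data known.

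Alternatives were other scalings (median, quantile), normexp on the median and local background signals (offset 50, since the mean signal was not used here), other filters on dim probes, the mean of kept probes, the authors' table, the scan day as a block, the slide scan as a random block (consensus correlation 0.38), the analysis of variance that the methods name, and each array left out. Other steps used Python 3.11.15, numpy 2.4.6, pandas 2.3.3, scipy 1.17.1, matplotlib 3.10.9 and data.table (1.17.8).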

Additional observations from a re-analysis of the deposited data

How the results depend on the processing

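Of the 5 genes called at an unadjusted p under 0.05, Casp2 and Xiap kept the sign in 16 of 16 alternatives and the call in 15, Bcl2l14 in 16 and 14, Diablo in 16 and 10, and Bcl2l1 in 15 and 7. All genes that passed an adjusted p of 0.05, 0 in the main setting, numbered 1094 with median scaling, 1 with quantile normalization, 210 with normexp, 1 with the filter on all 6 arrays, 1779 in the authors' table and 1075 with a block for the day of scanning, and 0 to 22 with an array left out. Death genes with a limma adjusted p under 0.05 were Bcl2l14 (0.00094) and Casp2 (0.045) with median scaling and Bcl2l14 (0.018) with the day block. In the authors' table they were Mlkl (0.015), Bax (0.027), Birc3 (0.030), Bcl2l1 (0.030), Bcl2l13 (0.036) and Cflar (0.037). With median scaling, the SEs of the death genes ran only from 0.50 to 0.51, beside 0.24 to 0.73 in the main setting. A gene's own spread thus hardly entered those adjusted p-values. The SE of Bcl2l14 was 0.51 with median scaling and 0.73 in the main setting. Median scaling moved the median change of all genes from -0.04 to -0.36 and their split at an unadjusted p under 0.05 from 1561 higher and 1816 lower to 1006 and 2239 and the list medians to -0.65 (promoting) and -0.52 (restraining). It shifts all genes of an array alike. Higher death genes, 1 in the main setting, numbered 3 with quantile normalization, 4 with normexp, 3 with the filter on all 6 arrays, 11 in the authors' table, 5 with the day block, 3 with the slide block and 0 by the analysis of variance. The counts over all genes moved as well, from 1561 of 14474 in the main setting. In the same order they were 1439, 1654, 1262 (of 12152), 2358, 2523, 1826 and 1062. Lower ones, 4 in the main setting, numbered 6 with median scaling, 5 with the day block and by the analysis of variance, 2 without a filter on dim probes, and 3 or 4 in the other settings that kept all arrays. Over all genes, 1816 were lower in the main setting, 2239 with median scaling, 1915 with the day block and 1766 by the analysis of variance. They numbered 1232 (of 32102) without a filter and 1512 to 2368 in those other settings. With an array left out, 1 to 3 were higher and 2 to 4 lower, and the list medians ran from -0.52 to -0.14 (promoting) and from -0.32 to 0.091 (restraining, above 0 only without SA-H array 4). The further pathway genes at an unadjusted p under 0.05, 13 in the main setting, numbered 8 without a filter, 20 in the authors' table and 7 to 14 with an array left out.

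In the authors' table the medians were 0.032 (promoting) and 0.36 (restraining), and the sign turned for Bcl2 (0.93), Birc2 (0.41), Birc3 (0.82), Casp1 (0.50), Casp4 (0.46), Mlkl (-0.80), Bcl2l12 (0.44), Bcl2l13 (-0.72), Tradd (0.30) and Bnip1 (0.25). With the mean of kept probes, which includes the dim probe of Bcl2l1, the sign of that gene turned (0.46). Another 30 changes of sign had no call on either side. The cause of these differences was not tested. The groups share no replicate numbers, so no replicate block was fitted. Signal over background limited Birc3 on array 4 and Mlkl on SA-H arrays 4 and 6, and kept 4 members out of the test.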

Other observations

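The columns of the deposited value table were set against the scanner arrays of the same label over 13894 probes, after each probe was centred on its mean. The correlation across probes (which are not independent replicates) was 0.47 for MOD 1, 0.40 for MOD 2, -0.27 for MOD 3, 0.14 for SA-H 4, 0.03 for SA-H 5 and 0.37 for SA-H 6. The columns of MOD 1, MOD 2 and SA-H 6 correlated best with their own array, whereas that of MOD 3 did so with array SA-H 4 (0.31), that of SA-H 4 with array SA-H 5 (0.26) and that of SA-H 5 with array SA-H 6 (0.25). Before centring, the correlations of levels were 0.83 to 0.91. Changes of the death genes in that table are therefore given only as an alternative.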
